A study of Homo sapiens with 8 samples.

Results

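The oncofetal genes described here were IGF2BP1, IGF2BP2, IGF2BP3, LIN28A, LIN28B, HMGA1 and HMGA2, which were taken by symbol. All 7 were found among the 60282 genes of the count table, and 5 of them passed a filter on low counts. Their RNA was measured in SK-UT-1, an established cell line of uterine leiomyosarcoma, a malignant tumour of uterine smooth muscle. The study asked how the transcriptome of these cells altered when the bromodomain protein BRD9 was inhibited. The submitters' design text names inhibitors of both BRD9 and BRD7. Cells were treated with TP-472 at 5 µM for 48 h, or with vehicle (DMSO) for 48 h, and 4 libraries of each group were sequenced. TP-472 is a small molecule that binds the bromodomain of BRD9, a subunit of a SWI/SNF chromatin remodelling complex. The study describes the replicates of its experiments as biological. All libraries came from a single cell line, so the p-values measure the spread between replicates of that line.

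Oncofetal genes are active in the embryo, fall silent in most adult tissue and return in many tumours. LIN28A and LIN28B are RNA-binding proteins that block the maturation of let-7 microRNAs, and let-7 in turn represses messenger RNAs that carry a match to its seed in their 3′ untranslated regions. HMGA2, the IGF2BP genes and the LIN28 genes are well known for such matches. The IGF2BP proteins bind and stabilize messenger RNAs, IGF2BP2 being broadly active in adult tissue and IGF2BP1 and IGF2BP3 being largely fetal. HMGA1 and HMGA2 are small architectural proteins that bind AT-rich DNA, and HMGA2 is rearranged in many benign uterine leiomyomas.

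The let-7 family shares the seed that defines these matches, and the members below are those made from the host genes that are described later. The sequences are from RefSeq, 5′ to 3′, with the seed (bases 2 to 8) in capitals.
hsa-let-7a-5p: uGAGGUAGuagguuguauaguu
hsa-let-7b-5p: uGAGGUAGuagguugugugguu
hsa-let-7c-5p: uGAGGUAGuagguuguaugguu
hsa-let-7f-5p: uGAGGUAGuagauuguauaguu
hsa-miR-98-5p: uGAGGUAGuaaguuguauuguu

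Each of the 7 genes held at least 1 match to this seed, the letters CTACCTC on the sense strand, in the 3′ untranslated region of its principal transcript in GENCODE 29. HMGA2 held 4 matches in 3003 bases, IGF2BP1 4 in 6206 bases and LIN28B 4 in 4549 bases. IGF2BP2, IGF2BP3, LIN28A and HMGA1 held 1 match each. Of the 19151 protein-coding genes with a 3′ untranslated region, 8.57% held a match and 0.162% held 3 or more. Among regions within 20% of the length of that of HMGA2, 0.106% held at least as many matches as HMGA2, which is itself counted among them. The like share, again with the gene itself counted, was 0.244% for LIN28B and 0.584% for IGF2BP1, and 8.19% to 16.2% for the 4 genes with 1 match. The matches of the 5 genes that were expressed in these cells are shown with the 14 bases before and the base after them, in GRCh38, with the letters that pair with the seed in capitals.
HMGA2 site 1, chr12:65963299-65963320, + strand: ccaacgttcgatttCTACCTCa
HMGA2 site 2, chr12:65964534-65964555, + strand: cccactactcaataCTACCTCt
HMGA2 site 3, chr12:65964946-65964967, + strand: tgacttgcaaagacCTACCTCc
HMGA2 site 4, chr12:65965799-65965820, + strand: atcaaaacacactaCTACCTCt
IGF2BP1 site 1, chr17:49051062-49051083, + strand: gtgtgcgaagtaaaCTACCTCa
IGF2BP1 site 2, chr17:49053699-49053720, + strand: agcagtgctagtaaCTACCTCa
IGF2BP1 site 3, chr17:49054353-49054374, + strand: tataaatggattaaCTACCTCa
IGF2BP1 site 4, chr17:49054998-49055019, + strand: cacttttgttttatCTACCTCt
IGF2BP2 site 1, chr3:185644220-185644241, - strand: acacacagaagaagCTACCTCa
IGF2BP3 site 1, chr7:23311795-23311816, - strand: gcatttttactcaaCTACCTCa
HMGA1 site 1, chr6:34245830-34245851, + strand: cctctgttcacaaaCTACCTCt

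**Figure D1:**
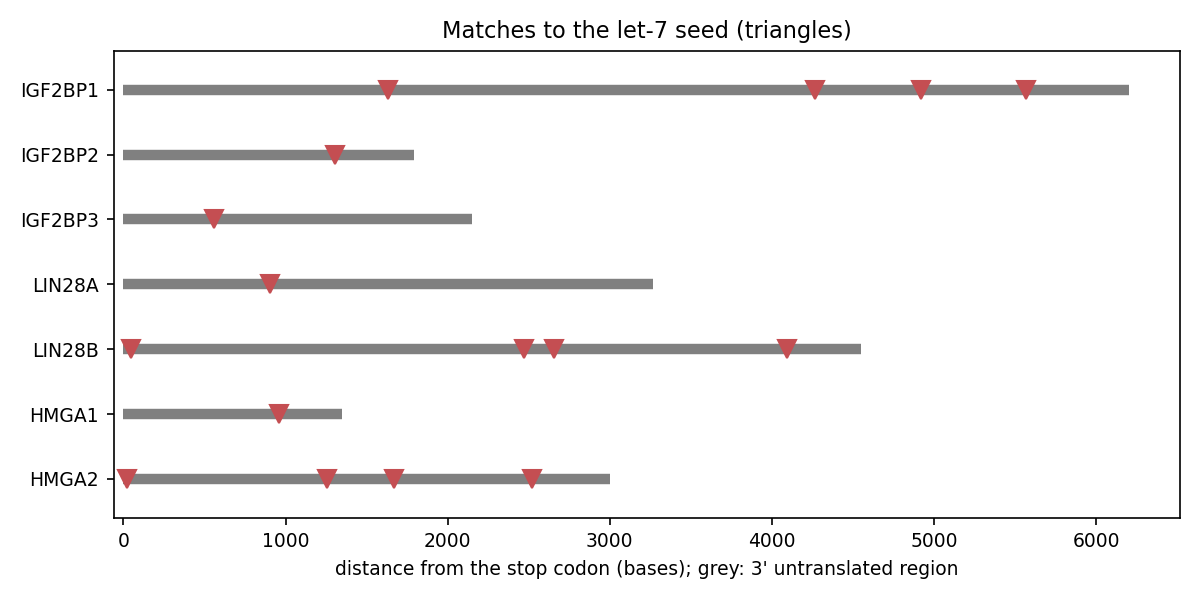
Each grey bar is the 3′ untranslated region of 1 gene, drawn from the stop codon (0) along its length in bases, and each triangle is a match to the let-7 seed. HMGA2, IGF2BP1 and LIN28B hold 4 matches each and the other genes hold 1.

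The libraries held between 32574716 and 36634184 estimated counts in the vehicle group and between 36246466 and 38545695 in the TP-472 group. Between 23333 and 23943 genes had a count in the vehicle libraries and between 25386 and 26215 in the TP-472 libraries. Each TP-472 library thus listed more genes than any vehicle library, which bears on genes at trace counts. Levels are given as CPM, that is, counts divided by library size and scaled between libraries by the TMM method. Vehicle replicate 3 stood apart from the rest. Its median Spearman correlation with the other vehicle libraries over the genes tested was 0.914, against 0.988 to 0.989 for the other 3 vehicle libraries and 0.993 to 0.997 within the TP-472 group. Calls of the genes named below that changed without this library are therefore given both ways.

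The labelled cell type was compared with marker genes. The smooth muscle genes CALD1 and ACTA2, an actin-binding protein and the smooth muscle actin, stood at 200 ± 15.3 and 160 ± 16.7 CPM (mean ± SD, n = 4) in vehicle cells, and 7 of 9 smooth muscle markers passed the filter. MYH11, the smooth muscle myosin, had 1 count over the 4 vehicle libraries and 35 over the TP-472 libraries, and MYOCD, the master regulator of the lineage, had 6 and 13. VIM, the mesenchymal intermediate filament, stood at 2538 CPM in vehicle cells. The other smooth muscle markers stood in vehicle cells at 81.5 (SMTN), 32.3 (TAGLN), 3.25 (DES), 2.53 (LMOD1) and 1.26 CPM (CNN1). Of the 9 markers, MYH11 and MYOCD were thus near 0 and the others were detected at widely different levels. Among other cell types, the summed level of 3 endothelial markers was low. It ranged from 0.0554 to 0.144 CPM in vehicle and 0.414 to 0.581 CPM in TP-472 libraries. Of 5 epithelial markers 3 passed the filter, KRT18 being the most abundant. The summed level of the 5 was 17.5 to 23.1 CPM in vehicle and 20.4 to 26.8 CPM in TP-472 libraries. CD68, which is not restricted to white blood cells, was the most abundant of 3 leukocyte markers, at 7.53 CPM in vehicle and 10.4 CPM in TP-472 cells (log2 fold change 0.47, adjusted p = 0.0307, under the 1.5-fold limit, and called with a correction for GC content at 0.65, adjusted p = 0.0142), and PTPRC and CD3E had 1 and 0 counts in all.

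With TP-472, IGF2BP3 fell, and IGF2BP2 fell by a margin that vehicle replicate 3 widened. HMGA1 was higher in TP-472 cells than in 3 of the 4 vehicle libraries and lower than in vehicle replicate 3. HMGA2 and IGF2BP1 did not pass the test, LIN28A was listed at trace counts that were higher with TP-472, and LIN28B had no count in any library. A gene was called when its adjusted p in edgeR's quasi-likelihood test was under 0.05 and its fold change was over 1.5. By this rule 2 of the 7 genes (of 5 tested) were called, both lower. Of all 14073 genes tested, 26.9% were called, 12.0% higher and 14.9% lower, so the count for these genes is read only gene by gene. An adjusted p under 0.05 alone was reached by 36.3% of the genes tested. Without vehicle replicate 3, 2 of the 5 tested genes were again called, IGF2BP3 lower and HMGA1 higher, and 25.5% of all genes tested were called.

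**Figure D2:**
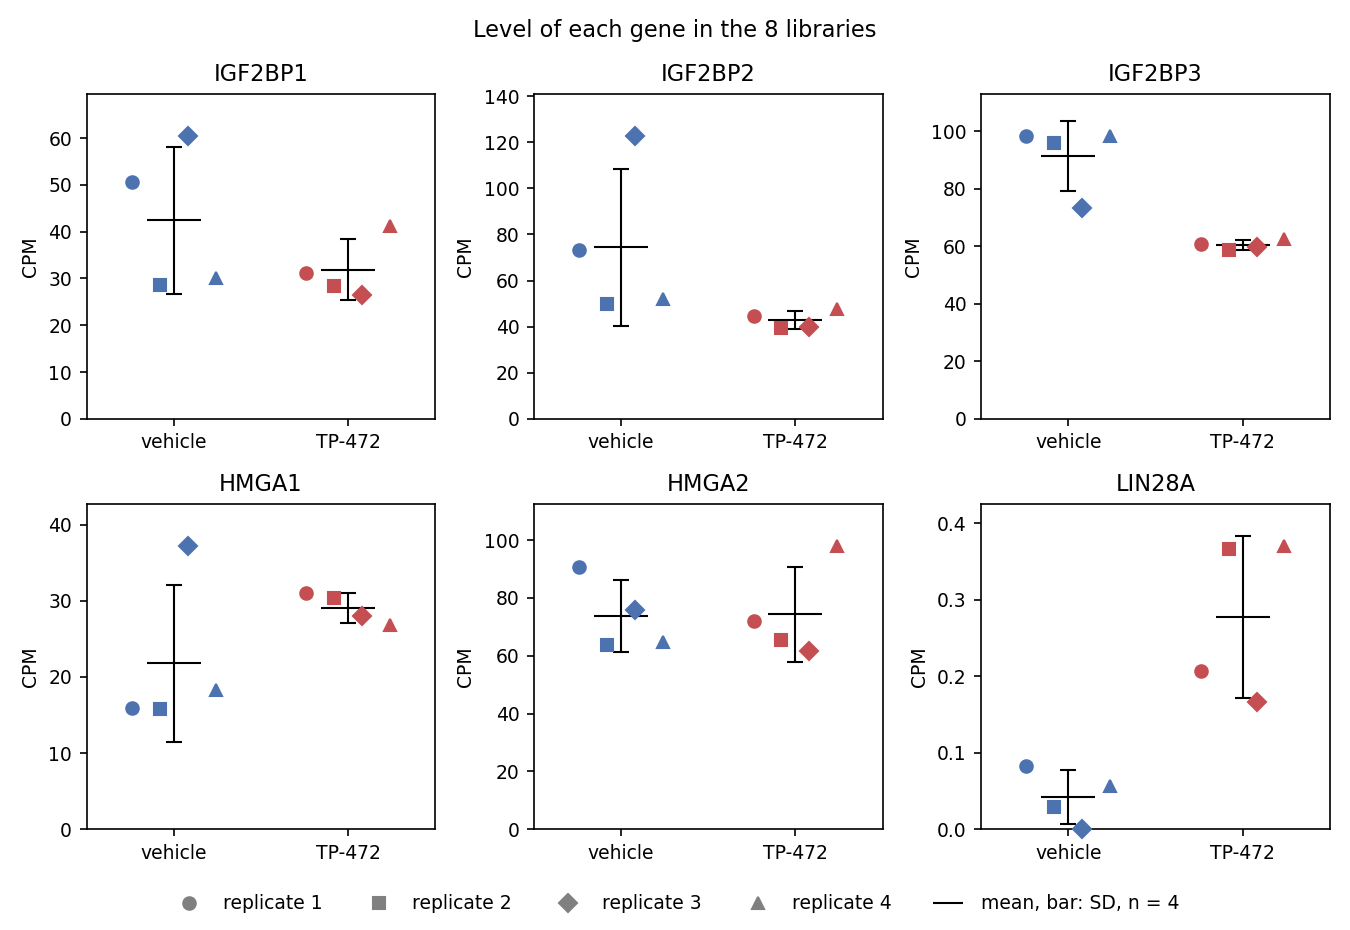
Each panel gives the level of 1 gene in CPM in the 4 vehicle (blue) and 4 TP-472 (red) libraries, with a marker shape for each replicate number, a horizontal bar at the group mean and an error bar of 1 SD. The IGF2BP2 and IGF2BP3 groups do not overlap, vehicle replicate 3 (diamond) is the highest library for IGF2BP1, IGF2BP2 and HMGA1 and the lowest vehicle library for IGF2BP3, and the LIN28A axis ends below 0.5 CPM.

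IGF2BP3 (ENSG00000136231, chr7:23310209-23470467, - strand) is the fetal RNA-binding protein also known as IMP3. In vehicle cells it stood at 98.4, 96.1, 73.4 and 98.4 CPM in replicates 1 to 4. In TP-472 cells it stood at 61.0, 58.7, 59.7 and 62.6 CPM. The groups did not overlap, all TP-472 values being lower, and vehicle replicate 3 was the vehicle library nearest to them. Groups that did not overlap, with TP-472 lower, were found for 21.6% of all genes tested. The mean went from 91.6 ± 12.2 to 60.5 ± 1.69 CPM (SD, n = 4 per group), and the log2 fold change was -0.60 (SE 0.117, 95% interval -0.86 to -0.33, adjusted p = 0.00507). Without vehicle replicate 3 the log2 fold change was -0.69 (adjusted p = 7.93e-06). The adjusted p stayed under 0.05 whichever library was left out, but the fold fell just under 1.5 when vehicle replicate 1, 2 or 4 or TP-472 replicate 2 was left out, with log2 fold changes of -0.56, -0.57, -0.56 and -0.58.

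The symbol IMP3 in the count table belongs to another gene (ENSG00000177971, chr15:75639085-75648706, - strand), a protein of the U3 small nucleolar ribonucleoprotein that takes part in ribosome assembly. That gene moved the other way. It stood at 28.0, 38.3, 25.2 and 38.6 CPM in vehicle cells and at 58.8, 60.7, 68.5 and 52.5 CPM in TP-472 cells. Its log2 fold change was 0.89 (SE 0.165, adjusted p = 0.00418), and it was called higher. Its groups did not overlap, with TP-472 higher, as for 23.8% of all genes tested. The values of IMP3 in this table are thus not those of IGF2BP3.

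IGF2BP2 (ENSG00000073792, chr3:185643739-185825056, - strand) is the family member found in adult tissue. It stood at 73.3, 49.8, 123 and 51.9 CPM in vehicle replicates 1 to 4 and at 44.5, 39.5, 40.0 and 47.7 CPM in TP-472 replicates 1 to 4. The groups did not overlap, with TP-472 lower, as for 21.6% of all genes tested. Vehicle replicates 2 and 4 were nonetheless close to the highest TP-472 library. The mean went from 74.4 ± 33.9 to 42.9 ± 3.91 CPM (SD, n = 4 per group), and the log2 fold change was -0.79 (SE 0.272, 95% interval -1.41 to -0.18, adjusted p = 0.0474). Without vehicle replicate 3 the log2 fold change was -0.44 (adjusted p = 0.0174), which is under the 1.5-fold limit, so the size of the fall depended on that library. The call was also lost without vehicle replicate 1 or any of the TP-472 replicates (adjusted p between 0.0812 and 0.115) and under limma-voom, total-count scaling and a replicate block (-0.69, adjusted p = 0.0860), with the same direction each time.

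IGF2BP1 (ENSG00000159217, chr17:48997412-49055650, + strand) is the member best known as a fetal stabilizer of let-7 targets. It stood at 50.6, 28.5, 60.4 and 30.0 CPM in vehicle cells and at 31.2, 28.4, 26.6 and 41.2 CPM in TP-472 cells. The groups overlapped, with vehicle replicates 1 and 3 above all other libraries. The log2 fold change was -0.41 (SE 0.262, 95% interval -1.0 to 0.18, adjusted p = 0.237) and was -0.19 without vehicle replicate 3 (adjusted p = 0.459).

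Whether the 3 paralogs moved unequally was tested on the log2 ratio of their counts in each library, which does not depend on the scaling. The ratio of IGF2BP1 to IGF2BP2 was higher with TP-472 by 0.34 (exact two-sided permutation p = 0.0571, adjusted over 3 ratios 0.171). The ratio of IGF2BP3 to IGF2BP2 differed by 0.11 (exact permutation p = 0.914) and by -0.27 without vehicle replicate 3. Neither difference passed the test. With 4 libraries a group the smallest p the permutations can give is 0.0286.

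HMGA1 (ENSG00000137309, chr6:34236873-34246231, + strand) stood at 15.9, 15.8, 37.2 and 18.3 CPM in vehicle replicates 1 to 4. In TP-472 replicates 1 to 4 it stood at 31.0, 30.4, 28.0 and 26.8 CPM. All TP-472 libraries were above vehicle replicates 1, 2 and 4 and below vehicle replicate 3, so the groups overlapped. With all libraries the mean went from 21.8 ± 10.3 to 29.1 ± 1.98 CPM (SD, n = 4 per group), and the log2 fold change was 0.42 (SE 0.270, 95% interval -0.20 to 1.03, adjusted p = 0.249). Without vehicle replicate 3 the vehicle mean was 16.7 ± 1.43 CPM (SD, n = 3), and HMGA1 was called higher at a log2 fold change of 0.80 (SE 0.0860, adjusted p = 5.61e-05). With all 8 libraries, a correction for the trend of each library with GC content also gave a call, at a log2 value of 0.91 (adjusted p = 1.04e-04). The annotated transcripts of HMGA1 held 61.9% G and C on average, against averages of 44.4% to 54.6% in the other 6 genes.

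**Figure D3:**
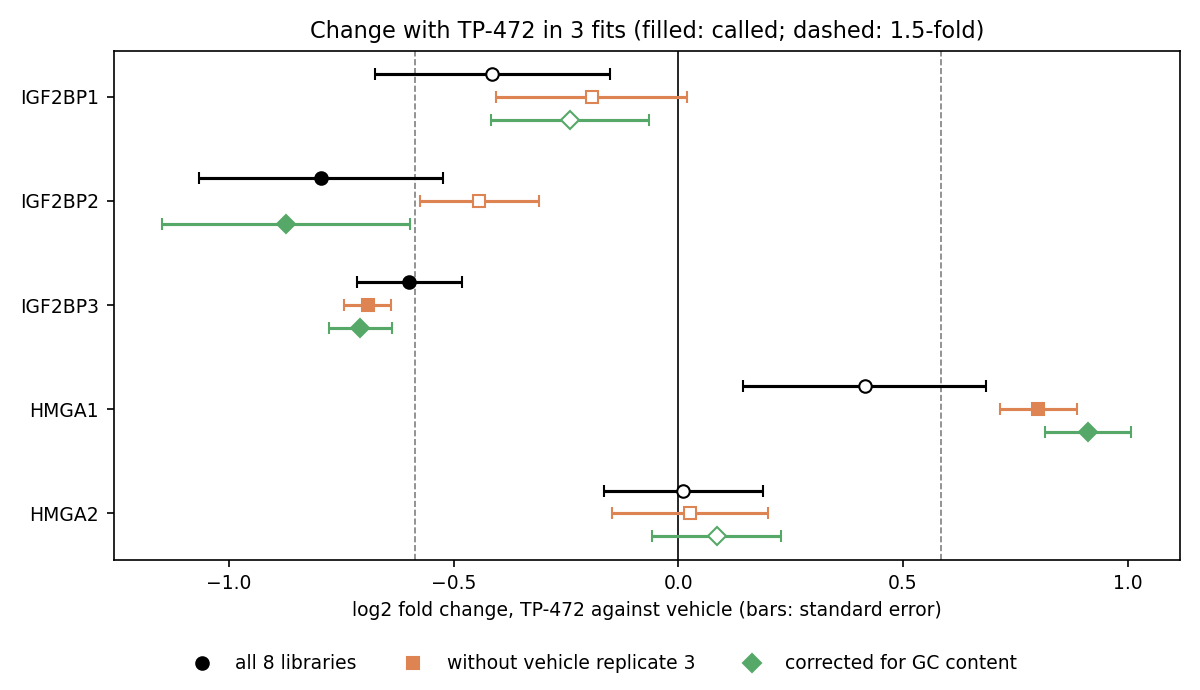
Points give the log2 fold change of each tested gene with TP-472 against vehicle in 3 fits (all 8 libraries, vehicle replicate 3 left out, all libraries corrected for GC content), with bars of 1 standard error, filled where called; dashed lines mark 1.5-fold. HMGA1 moves from 0.42 to 0.80 and 0.91, IGF2BP2 moves from -0.79 to -0.44 when the library is left out, and IGF2BP3 stays between -0.71 and -0.60.

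HMGA2 (ENSG00000149948, chr12:65824131-65966295, + strand) stood at 90.6, 63.7, 75.8 and 64.7 CPM in vehicle cells and at 72.1, 65.6, 61.6 and 97.9 CPM in TP-472 cells. The groups covered nearly the same range. The means were 73.7 ± 12.5 and 74.3 ± 16.3 CPM (SD, n = 4 per group), and the log2 fold change was 0.01 (SE 0.176, adjusted p = 0.964). The 95% interval of -0.39 to 0.41 did not reach 1.5-fold in either direction. The ratio of HMGA2 to HMGA1 was lower by 0.51 on the log2 scale (exact two-sided permutation p = 0.286, adjusted 0.429), with 1.84 ± 0.616 in vehicle and 1.33 ± 0.358 in TP-472 libraries. The difference was -0.78 without vehicle replicate 3 and -0.29 without vehicle replicate 1, where the permutation cannot go under 0.0571.

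RPSAP52 (chr12:65758020-65826997, - strand) is a long noncoding RNA gene that lies head to head with HMGA2 and overlaps its 5′ end on the opposite strand. It had 3, 7, 6 and 6 counts in vehicle cells and 38, 26, 26.2 and 44.2 counts in TP-472 cells. The groups did not overlap. The ratio of its summed level was 5.82 (95% interval 3.68 to 9.57, counting error only), with an exact permutation p = 0.0286, the smallest that 4 against 4 libraries can give. It was too low for the filter, and edgeR without a filter gave a log2 fold change of 2.49 (adjusted p = 6.62e-04). That fit called 15.3% of its 33192 genes, and 47.0% of those calls were higher. Among genes that passed the filter, 23.8% had groups that did not overlap with TP-472 higher. The libraries were prepared to keep the strand, and at a mean of 0.900 CPM with TP-472 against 74.3 CPM for HMGA2 the antisense RNA was a small part of the signal at the locus. HMGA2-AS1, a second antisense gene, had 0 counts in vehicle cells and 8 over the TP-472 libraries.

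LIN28A (ENSG00000131914, chr1:26410778-26429722, + strand) had 3, 1, 0 and 2 counts in vehicle cells and 8, 13, 6 and 14 counts in TP-472 cells. The groups did not overlap, the TP-472 values being higher at levels of at most 0.370 CPM. Among genes that passed the filter, 23.8% had such groups with TP-472 higher. Each TP-472 library also listed more genes than any vehicle library, and the part of this in the LIN28A counts was not tested. The ratio of its summed level was 6.51 (95% interval 2.75 to 18.8, counting error only; exact permutation p = 0.0286). It lay under the filter and was not among the genes tested. Without the filter LIN28A was called higher by edgeR (log2 fold change 2.6, adjusted p = 0.0214), as it was by DESeq2 (2.70, adjusted p = 0.00875). The edgeR fit without the filter called 15.3% of its 33192 genes. LIN28B (ENSG00000187772, chr6:104936616-105083332, + strand) had 0 counts in all 8 libraries, which allows a level of up to 0.0776 to 0.0868 CPM when 3 counts are taken as the limit. The pluripotency genes that accompany LIN28A in stem cells were low as well. POU5F1 had 0 and 4 counts over the vehicle and TP-472 libraries and SOX2 had 3 and 5, and of 9 such genes KLF4 was the only gene to pass the filter, at a log2 fold change of 0.45 (adjusted p = 0.0964). KLF4, a transcription factor that is also active in many adult tissues, was called higher without vehicle replicate 3 (0.65, adjusted p = 0.00171) and with the GC correction (0.72, adjusted p = 9.44e-04).

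Levels were compared between genes per kilobase of the principal transcript. In vehicle cells the order was IGF2BP3 (21.5 CPM per kilobase), IGF2BP2 (20.2), HMGA2 (16.5), HMGA1 (11.4), IGF2BP1 (5.12) and LIN28A (0.0105). The place of IGF2BP2 rested on vehicle replicate 3, where it stood at 33.3 CPM per kilobase. In vehicle replicates 1, 2 and 4 HMGA2 lay above IGF2BP2. Neighbours from IGF2BP3 to HMGA1 overlapped between libraries, while HMGA1 and IGF2BP1, and IGF2BP1 and LIN28A, did not. In TP-472 cells the order of CPM per kilobase was HMGA2 (16.6), HMGA1 (15.1), IGF2BP3 (14.2), IGF2BP2 (11.6), IGF2BP1 (3.85) and LIN28A (0.0692). Here HMGA2, HMGA1 and IGF2BP3 overlapped with their neighbours, and IGF2BP3 lay above IGF2BP2 in every library. The places of HMGA2 and IGF2BP3 depended on the length used. Its principal transcript has 4473 bases and all its exons together 15403 bases, and with the latter its vehicle level was 4.78 CPM per kilobase, below the 9.37 of HMGA1. With the length of all exons IGF2BP3 stood at 10.8 in vehicle and 7.11 CPM per kilobase in TP-472 cells, below IGF2BP2 at 15.7 and 9.06, and in TP-472 cells it was then below IGF2BP2 in every library. In both groups the HMGA and IGF2BP transcripts were therefore within the same order of magnitude, and the LIN28 transcripts were far below them.

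Processed pseudogenes and antisense genes can take reads from these genes. Of 8 HMGA1 pseudogenes and 2 LIN28A pseudogenes in the table, HMGA1P8 had the most counts, 8 over the vehicle and 16 over the TP-472 libraries, against 3059 and 4301 for HMGA1. LIN28AP1 had 3 counts over the vehicle and 2 over the TP-472 libraries, against 6 and 41 for LIN28A. IGF2BP2-AS1 and LIN28B-AS1 had 0 counts. MALSU1, a mitochondrial ribosome factor whose 3′ end meets that of IGF2BP3 on the opposite strand, went from 23.0 ± 5.19 to 33.3 ± 2.36 CPM (SD, n = 4 per group). The log2 fold change was 0.54 (adjusted p = 0.0358), under the 1.5-fold limit, and it ran against the fall of IGF2BP3.

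The promoter of IGF2BP3, the called gene with the smaller standard error, is shown from RefSeq (chr7:23470442-23470741, - strand, GRCh38.p14, from 250 bases before to 50 after the start), with E-box letters in capitals.
IGF2BP3 promoter: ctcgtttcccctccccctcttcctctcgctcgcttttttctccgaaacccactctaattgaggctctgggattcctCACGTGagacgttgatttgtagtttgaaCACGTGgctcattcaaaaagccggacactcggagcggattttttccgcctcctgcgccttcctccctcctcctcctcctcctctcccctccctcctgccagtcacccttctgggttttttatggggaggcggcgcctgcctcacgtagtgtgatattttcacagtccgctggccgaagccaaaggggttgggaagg
It held the E-box CACGTG at 174 and 146 bases before the start. On either strand, 7.26% of 35116 promoters of this length held these letters. The promoters of HMGA1, IGF2BP2 and LIN28B held none. The letters TGANTCA of AP-1, held by 7.71% of all promoters, and TATAAA of the TATA box, held by 11.5%, searched on both strands with none overlapping another, were not in any of these 4 windows. The promoters of IGF2BP1, LIN28A and HMGA2 were not analysed here.

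The mature let-7 RNAs were not measured, but their host transcripts were. Of 19 host or precursor genes 17 were listed, 6 passed the filter, 3 were called lower (14.9% of all genes tested were) and none was called higher. The count was 2 when TP-472 replicate 2, 3 or 4 was left out. MIR99AHG, the host of let-7c, stood at 82.4, 66.8, 45.4 and 68.8 CPM in vehicle cells and at 23.2, 21.1, 22.0 and 25.9 CPM in TP-472 cells. The groups did not overlap, with TP-472 lower, as for 21.6% of all genes tested. The log2 fold change of MIR99AHG was -1.51 (SE 0.177, adjusted p = 4.85e-04) and -1.65 without vehicle replicate 3. MIRLET7BHG, the host of let-7b and of a let-7a copy, stood at 17.5, 11.9, 56.9 and 12.8 CPM in vehicle cells and at 7.64, 7.38, 6.66 and 6.0 CPM in TP-472 cells. Its log2 fold change of -1.84 (adjusted p = 0.0188) was -1.02 (adjusted p = 3.08e-04) without vehicle replicate 3, the highest library. HUWE1, a ubiquitin ligase gene whose introns hold miR-98 and a let-7f copy, had a log2 difference of -0.76 (adjusted p = 0.0137). The host genes MIRLET7A1HG, MIR100HG and WDR82 were not called. Their log2 fold changes were 0.40 (adjusted p = 0.122), -0.25 (adjusted p = 0.344) and 0.12 (adjusted p = 0.504). In vehicle cells MIR100HG and WDR82 stood at 154 and 162 CPM, above MIR99AHG and MIRLET7BHG. The short MIRLET7 precursor genes had 0 counts.

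**Figure D4:**
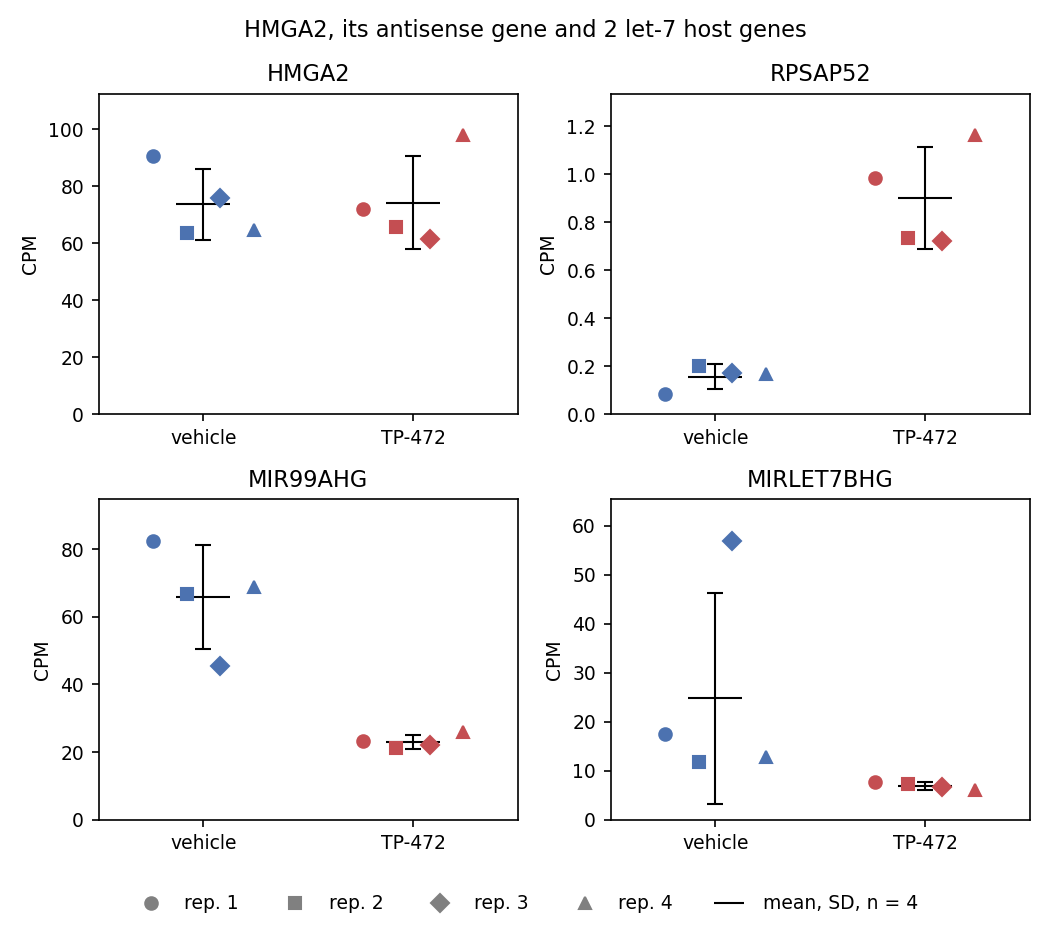
CPM of HMGA2, of its antisense gene RPSAP52 and of the let-7 host genes MIR99AHG and MIRLET7BHG in the 4 vehicle (blue) and 4 TP-472 (red) libraries, with the group mean and an error bar of 1 SD. RPSAP52 is higher in every TP-472 library while HMGA2 overlaps between groups, and both host genes are lower in every TP-472 library.

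Among 20 genes that process let-7 or act with it, all tested, 1 was called higher and 3 lower, beside 12.0% higher and 14.9% lower among all genes tested, and the median log2 fold change was -0.18 against -0.03 over all genes tested. The gene called higher was TRIM71, a fetal let-7 target that acts on Argonaute, which went from 0.958 ± 0.116 to 2.05 ± 0.423 CPM (SD, n = 4 per group; log2 fold change 1.10, adjusted p = 0.00456). It was over 1 CPM in 2 of the 4 vehicle libraries and in all 4 TP-472 libraries, so it passed the filter through the group where it was high. TNRC6B, the scaffold of the silencing complex, fell by 0.96 on the log2 scale (adjusted p = 0.00174), AGO4, an Argonaute protein, fell by 0.67 (adjusted p = 0.00454), and DDX17, a helicase of the microRNA processor, fell by 0.63 (adjusted p = 0.00678). DICER1, DROSHA and the tailing enzymes TUT4 and TUT7, which act with LIN28 proteins, were not called. TUT4 was called lower without vehicle replicate 3 (log2 fold change -0.59, adjusted p = 0.00270), which gave 1 gene higher and 4 lower. With the GC correction TUT4 (-0.73, adjusted p = 0.00310) and TNRC6C (-0.59, adjusted p = 0.0165) were called lower. Without vehicle replicate 2 or 4, 1 gene was called higher and 5 lower.

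Of 40 messenger RNAs commonly given as let-7 targets, 35 were tested, 6 were called higher and 8 lower, beside 12.0% and 14.9% of all genes tested. The filter decided part of this count, since IL6 and TRIM71 passed it through the TP-472 group, where they were high, and ACVR1C, with 12 and 60 counts in vehicle and TP-472 cells, did not pass. IL6, an inflammatory cytokine, had 10 counts over the vehicle libraries and 287 over the TP-472 libraries, a ratio of 27.3 (95% interval 14.7 to 57.6, counting error only). RDH10, an enzyme of retinoic acid synthesis, rose by 1.69 on the log2 scale (adjusted p = 3.30e-04), and TRIM71 was the third by size of rise. The collagen genes COL1A2 and COL3A1 and the DNA-binding protein gene ARID3A had the largest falls in this list, of -2.58 (adjusted p = 1.74e-05), -1.62 (adjusted p = 3.97e-05) and -1.63 (adjusted p = 0.00313). The listed targets thus went both ways, also without vehicle replicate 3, where 7 were called higher and 6 lower. MYC and HRAS were called higher without that library (0.66 and 0.67) and with the GC correction (0.64 and 0.96). CDC34 was called higher with the correction (0.85, adjusted p = 0.0141). IRS2, called lower with all libraries (-0.95), was not called without that library (-0.53) or with the correction (-0.55). Grouped by the number of seed matches, 11.6% of 10872 genes with none were called higher and 14.9% lower. Of 23 genes with 3 or more matches, HMGA2 and IGF2BP1 apart, 8.70% were called higher and 17.4% lower.

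Of 20 messenger RNAs commonly given as bound by IGF2BP proteins, 17 were tested, 1 was called higher and 2 lower, beside 12.0% and 14.9% of all genes tested. CCND1, the cyclin that drives entry into the cell cycle, rose from 127 ± 25.4 to 261 ± 14.8 CPM (SD, n = 4 per group; log2 fold change 1.04, adjusted p = 0.00106). PDLIM7 and FOXK1 fell by 1.44 (adjusted p = 0.0160) and 1.28 (adjusted p = 0.0263), and by 0.86 and 0.74 without vehicle replicate 3, where 2 genes of this list were called in each direction. Without TP-472 replicate 3, 1 gene of this list was called higher and 0 lower. With the GC correction MYC (log2 fold change 0.64, adjusted p = 0.00103), CCND3 (0.71, adjusted p = 8.10e-04) and SRF (0.63, adjusted p = 0.00209) were also called higher. CCND1 (1.45), PDLIM7 (-0.79) and FOXK1 (-0.84) kept their calls with it. IGF2, the fetal growth factor whose transcript gave the family its name, stood at 5.48 ± 5.47 CPM in vehicle and 2.42 ± 0.472 CPM in TP-472 libraries and did not pass the test (log2 fold change -1.18, adjusted p = 0.130). Vehicle replicate 3 was at 13.6 CPM, and without it the vehicle mean was 2.77 ± 0.810 CPM (SD, n = 3) and the log2 fold change was -0.19 (adjusted p = 0.50). None of 8 proteins found with the IGF2BPs in messenger RNA particles was called, beside 26.9% of all genes tested, and their median log2 fold change was 0.14. Of these 8, only the RNA helicase DHX9 had a 95% interval without 0 (log2 fold change 0.47, 0.09 to 0.84, adjusted p = 0.0549).

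None of the 8 tested HMGB and HMGN genes, the other high mobility group families, was called by edgeR, beside 26.9% of all genes tested, and the 95% interval of each held 0 (median log2 fold change 0.15). Of 9 tested genes commonly tied to HMGA proteins 3 were called, all lower, beside 14.9% called lower among all genes tested. Under the filter, SNAI1 had 45 and 154 counts in vehicle and TP-472 cells (edgeR without the filter 1.70, adjusted p = 0.0134) and PLAG1 had 77 and 188 (1.2, adjusted p = 0.0275), both higher. That fit called 15.3% of its 33192 genes. TWIST1, a transcription factor of mesenchymal cells, stood at 146, 141, 177 and 138 CPM in vehicle and at 60.1, 64.4, 64.1 and 61.8 CPM in TP-472 libraries. The groups did not overlap, with TP-472 lower, as for 21.6% of all genes tested. The log2 fold change of TWIST1 was -1.27 (SE 0.109, adjusted p = 1.15e-04). INSR, the insulin receptor, fell by 1.11 (adjusted p = 0.00151), and RAD51B, a DNA repair gene that is a fusion partner of HMGA2 in leiomyomas, fell by 0.71 (adjusted p = 0.00700).

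Of 16 other oncofetal genes 7 were tested, 2 were called higher and 2 lower, beside 12.0% and 14.9% of all genes tested. TPBG, the trophoblast glycoprotein, rose by 0.80 (adjusted p = 0.00118), and TRIM71, given above, was the other gene called higher. PEG10, an imprinted gene of the placenta, fell by 1.11 (adjusted p = 0.00353), and NR6A1, a nuclear receptor of the embryo and a let-7 target, fell by 0.94 (adjusted p = 0.00415). The classical tumour marker AFP had 1 count over the vehicle libraries and none with TP-472. Markers of cell type moved in the same libraries. DES, TAGLN and LMOD1 were called lower among 7 tested smooth muscle markers, beside 14.9% called lower among all genes tested. MYH11 and MYOCD, under the filter, had more counts with TP-472, as given above. DES and LMOD1 passed the filter through the vehicle group alone, and ACTA2 was called lower without vehicle replicate 3 (-0.59, adjusted p = 1.38e-04). Among 3 tested epithelial markers KRT18 was called higher and KRT19 lower, beside 12.0% and 14.9% of all genes tested. EPCAM, an epithelial marker under the filter, was lower, with 103 counts in vehicle and 36 in TP-472 cells (edgeR without the filter -1.57, adjusted p = 0.00753). That fit called 15.3% of its 33192 genes. With the GC correction TAGLN (-0.42, adjusted p = 0.0924) and KRT19 (-0.50, adjusted p = 0.0574) were no longer called and the epithelial marker KRT8 was called higher (0.75, adjusted p = 0.0391). The part of these markers in the changes of the oncofetal genes was not tested.

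**Figure D5:**
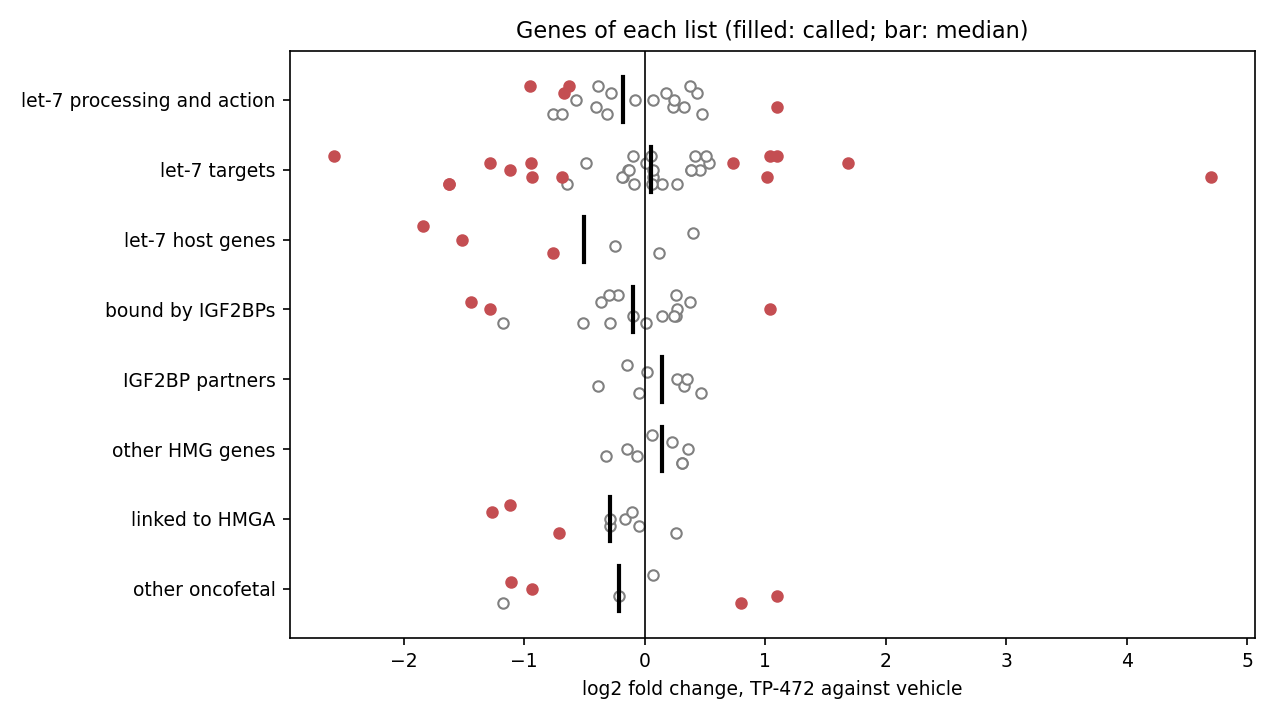
Each point is a tested gene, placed by its log2 fold change with TP-472 against vehicle and by its list, filled red where called, with a black bar at the median of the list. The let-7 targets spread from -2.58 to 4.70, and no gene is called among the IGF2BP partners or the other HMG genes.

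The genes whose log2 CPM ran closest to each oncofetal gene over the 8 libraries were taken by Pearson's r, as a description, since the libraries share 2 groups and vehicle replicate 3. IGF2BP3 ran closest to DDX17 (0.998), AGO4 (0.997) and ZYG11B (0.996). IGF2BP2 ran closest to DOCK6, LAMA5 and PRKD2 (0.998 to 0.999), and IGF2BP1 to POLR2A (0.995), the large subunit of RNA polymerase II. HMGA1 ran closest to CSPG5 (0.994) and COL7A1 (0.992), and HMGA2 to SMG1 (0.979), a kinase of RNA surveillance. Among the 10 pairs of the oncofetal genes tested, IGF2BP1 and IGF2BP2 ran closest together (r = 0.90 over the 8 libraries, 0.81 without vehicle replicate 3), IGF2BP1 and HMGA2 had r = 0.72 (0.92 without it), and IGF2BP3 and HMGA1 ran in opposite directions (r = -0.84, and -0.97 without it). The other 7 pairs had r between -0.01 and 0.38, and without vehicle replicate 3 between -0.79 (IGF2BP2 and HMGA1, 0.11 with it) and 0.78 (IGF2BP2 and IGF2BP3, 0.38 with it).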

How the data were processed

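The authors made strand-specific libraries from total RNA, estimated transcript abundance with Salmon 1.4.0 (per the submitters' processing notes) and summed the estimates to genes of GENCODE 34. The deposited values are estimated counts, neither normalized nor filtered. They were rounded to whole numbers, scaled by TMM and tested with edgeR 4.0.16 (R 4.3.3) after keeping genes over 1 CPM in at least 4 libraries. Adjusted p-values are Benjamini-Hochberg values over the 14073 genes tested. Genes under the filter were compared by exact permutation over 70 assignments. In simulated data of 14073 genes for this comparison, 91 of 200 genes changed 2-fold were called, 0 with the wrong sign, with 4 false calls. Coordinates and lengths are from GENCODE 29 on GRCh38. The ratio of LIN28B to LIN28A was left out because LIN28B had no counts. The 7 genes and the gene lists were chosen with earlier results of these data known. Named list genes are up to 3 with the largest called rise and fall, those the background needs, copies and antisense genes, the 3 closest genes by correlation, and genes decided by 1 library. IMP3 and MALSU1 were added for their name and position, after their values were seen. DESeq2, limma-voom, other scalings and filters, unrounded counts, a replicate block and leaving out each library were tried, and the GC correction with vehicle replicate 3 left out and the length of all exons were added after seeing the data.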

Additional observations from a re-analysis of the deposited data

Results flagged for a closer look

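In 18 groups of 4 libraries (levels and ratios of the genes described), the gap of the highest or lowest library to its neighbour was divided by the range of the group, and values over 0.829 were listed. Chance gives about 5% of groups. The 3 listed are the IGF2BP3 level in vehicle cells (0.905), where replicate 3 was lowest at 73.4 CPM against 96.1 to 98.4 CPM, the HMGA1 level in vehicle cells (0.882), where replicate 3 was highest at 37.2 CPM against 15.8 to 18.3 CPM, and the log2 ratio of HMGA2 to HMGA1 in TP-472 cells (0.860), where replicate 4 stood at 1.87 against 1.11 to 1.21. The first and second of these are the same library, which stood apart over all genes tested.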

How the results depend on the processing

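Of the 7 genes, 2 were called with all libraries, 3 with DESeq2, with no filter and with the GC correction, and 1 with limma-voom, with total-count scaling and with the replicate block. Leaving out 1 library at a time gave 0 to 2. IGF2BP2 kept its direction but was not called with limma-voom (-0.70, adjusted p = 0.0686), with total-count scaling (-0.84, adjusted p = 0.0590), with the GC correction and vehicle replicate 3 left out together (-0.47, under 1.5-fold), or without any of vehicle replicates 1 and 3 or the TP-472 replicates (-0.85 to -0.44; over all libraries left out -0.95 to -0.44). HMGA1 was called with the GC correction (0.91), also with vehicle replicate 3 left out (0.92), and without that library its value was 0.80, the highest of the range from 0.29. IGF2BP3 ranged from -0.69 to -0.56 with 1 library left out. HMGA2, near 0, turned to -0.017 with total-count scaling and ranged from -0.15 to 0.13. LIN28A ranged from 2.30 to 3.28, where permutation cannot go under 0.0571. The ratio of IGF2BP3 to IGF2BP2 turned to -0.27 without vehicle replicate 3 (range with 1 library left out -0.27 to 0.30). LIN28B gave no value. Genes called numbered 3789, and 2690 to 4223 with 1 library left out.

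Equal replicate numbers did not pair the libraries: the deviations of same-numbered libraries correlated at -0.06, 0.12, -0.17 and -0.18, and 1 of 8 libraries correlated best with its own number. With the replicate block 3055 genes were called. IGF2BP2 had -0.69 (adjusted p = 0.0860) with the block and -0.75 (adjusted p = 0.0516) with the block and the GC correction, where HMGA1 had 0.92 (adjusted p = 0.00306).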
